A study of Neurospora crassa OR74A and Aspergillus nidulans FGSC A4 with 22 samples.

Results

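Wild-type Neurospora crassa was compared after a shift to crystalline cellulose and after a shift to medium with no carbon source. The 6 RNA-seq libraries described here were chosen by their labels from the 22 libraries of the series. All came from strain OR74A, which carries no engineered deletion. Both groups were grown for 16 h in Vogel's minimal medium with 2% sucrose at 25 °C in constant light, washed, and transferred for 4 h. The Avicel group (3 libraries) received medium with 2% Avicel PH-101, a microcrystalline cellulose, and the no carbon group (3 libraries) received the same medium without a carbon source. The design text calls the libraries of each condition biological triplicates, so each group is 1 strain grown in 3 cultures and not 3 strains. The comparison asks which transcripts differed in abundance when cellulose, rather than nothing, followed sucrose.

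Neurospora crassa is a filamentous ascomycete that grows on dead plant material. It secretes cellobiohydrolases, endoglucanases and lytic polysaccharide monooxygenases that break cellulose into cellodextrins. Cellodextrin transporters bring these short glucose chains into the cell, where beta-glucosidases cut them to glucose, and the zinc binuclear cluster regulators CLR-1 and CLR-2 are required for most of this response. Starved colonies are also known for switching from hyphal growth towards conidiation, the formation of orange asexual spores.

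The deposited table held 9582 genes, with 1 mean normalized count per gene for each condition, averaged by the authors over the 3 libraries. A normalized count is the number of reads counted in a gene divided by a size factor of its library, and it is not corrected for gene length. Of these genes, 7863 had a mean over both conditions of at least 100 and were compared, and 1719 fell below that minimum. Fold changes are the ratio of the Avicel mean to the no carbon mean, and log2 fold changes are positive where Avicel was higher. Since the table has no value per library, a gene was called higher or lower when the means differed at least 4-fold, and this call carries no test.

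For genes with low means, the whole reads of each library could be recovered from the exact decimals of the mean, which gave 4078 genes on Avicel and 1931 without carbon. The size factors so obtained were 0.957, 0.884 and 0.169 on Avicel, against 2.68, 2.51 and 1.03 in the cultures without carbon. These correspond to an estimated 54.9, 50.7 and 9.67 M counted reads (M, 1e6 reads) on Avicel and 112, 105 and 43.0 M without carbon. The libraries are numbered by size factor and could not be matched to the replicate numbers of the labels. The shallowest Avicel library, library 3, stood apart. Among 2310 genes with an Avicel mean of at least 100, its log2 count was at least 2-fold away from the mean of the other libraries in 23.1%. For libraries 1 and 2 this share was 4.03% and 6.67%. Without carbon, 739 genes with a mean of at least 30 were used. There library 2 departed by 2-fold in 18.8%, against 8.66% and 11.8% for libraries 1 and 3. Libraries 1 and 2 on Avicel were close to each other but differed beyond counting error, with a chi-square per gene of 4.02 over 2943 genes.

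The median SD of log2 counts between libraries was 0.323 on Avicel (2310 genes with a mean of at least 100). Without carbon it was 0.382 (739 genes with a mean of at least 30), and 0.383 in the 187 genes with at least 100. Together 0.323 and 0.382 give a log2 difference of means a typical standard error of 0.289 for n = 3 in each group. The 4-fold limit thus lay 6.92 typical standard errors from 0. These spreads come from low genes and may differ for abundant ones. They are also medians over genes, and genes picked for a large ratio can vary more. Of 20 genes called by fold that could be tested with replicates, 9 passed, as described below.

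The summed means were 57333258 on Avicel and 41836340 without carbon. Rescaling the means to equal sums lowers every log2 fold change by 0.45 and places the median of all genes at -0.45, against 0.01 as deposited. Group directions below are given on the deposited scale, and a list whose median changes sign after this rescaling is named as such. The hyphal markers act (actin), Bml (beta-tubulin) and tef-1 (translation elongation factor) had log2 fold changes of 0.26, 0.27 and 0.34 on the deposited scale, all of which turn negative after rescaling. In whole colonies, fewer cells of a type and less RNA per cell cannot be told apart.

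On the deposited scale, more genes were higher than lower. On Avicel, 217 of 7863 genes were at least 4-fold higher (2.76%) and 38 were at least 4-fold lower (0.483%). With equal sums the counts became 163 higher and 87 lower, so the excess of higher genes was smaller on that scale. At 2-fold, 596 genes were higher (7.58%) and 311 were lower (3.96%), while 6956 genes (88.5%) stayed within 2-fold. With equal sums this order turned round, to 343 higher and 914 lower at 2-fold. At least 16-fold differences were found in 88 genes higher on Avicel and in 0 genes lower. Above that, 48 genes were at least 64-fold higher, 22 had log2 fold changes of at least 8, and 8 of at least 10. Log2 fold changes ran from -3.48 to 13.66, with the middle 50% of genes between -0.27 and 0.31. The limit fell in a continuous distribution: the nearest gene called higher was at 2.01 and the nearest not called at 1.998, and on the other side these values were -2.01 and -1.99.

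**Figure D1:**
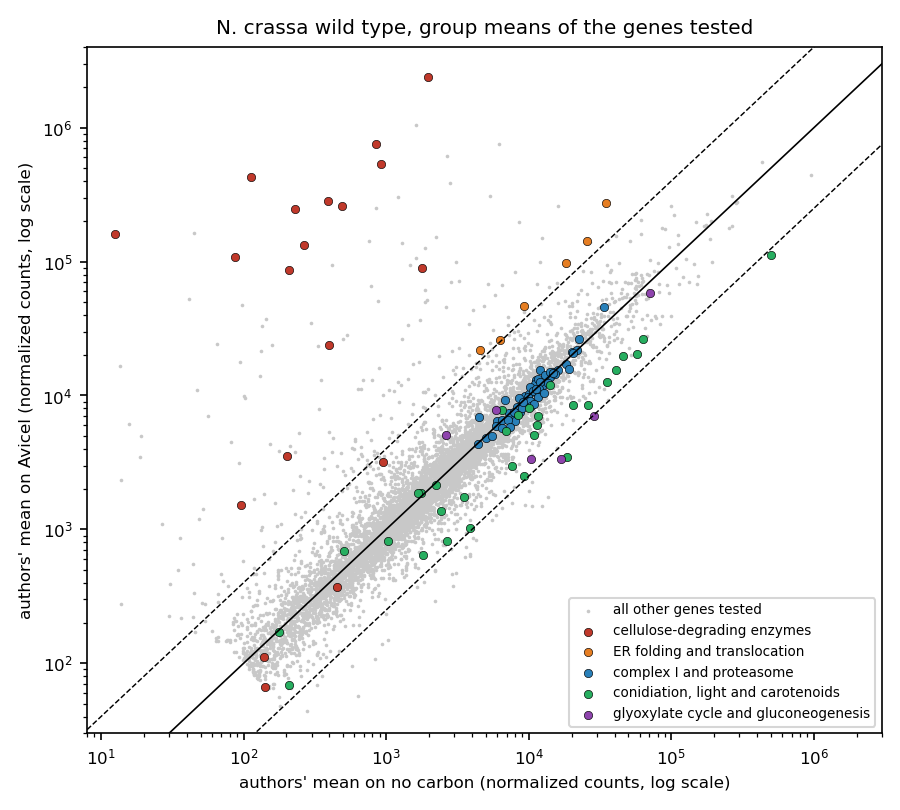
Mean normalized count per gene on Avicel (vertical axis, log scale) against no carbon (horizontal axis, log scale) for the 7863 genes compared, each point 1 gene and each value the authors' mean of 3 libraries. The 217 genes at least 4-fold higher on Avicel form a cloud reaching far above the diagonal, and the 38 genes at least 4-fold lower lie close below it.

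The higher genes took up a large share of the normalized counts on Avicel. Together the 217 genes held 25.1% of all normalized counts on Avicel, against 1.18% without carbon. The 38 lower genes held 0.265% on Avicel and 1.69% without carbon. A median higher gene had a mean of 10638 on Avicel and 664 without carbon, while a median gene of the whole table had 2126 and 2011. Counts were concentrated in fewer genes on Avicel, where 297 genes made up 50% of the total, against 562 genes without carbon.

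Abundance here means the normalized count, which is not corrected for gene length. By this measure the most abundant transcript on Avicel was cbh-1, which encodes cellobiohydrolase I. Its mean was 2398169 normalized counts on Avicel and 1978 without carbon. With gh11-2, a family GH11 xylanase at 1042360 on Avicel and 1626 without carbon, it made up 6.00% of the counts on Avicel, against 0.00861% without carbon. Of the 15 most abundant genes on Avicel, 11 were called higher, and these included cdt-2, gh6-2, gh1-1, gh6-3, gh5-1, gh10-2, cdt-1, ce5-2 and cdh-1. The other 4 were also among the 15 most abundant genes without carbon: tef-1, ccg-1, NCU10040 and NCU03600. Without carbon the list was led by ccg-1, a glucose-repressible and clock-controlled gene, with a mean of 442150 on Avicel and 947393 without carbon. It was followed by eas, the hydrophobin that coats conidia, with 112621 on Avicel and 499847 without carbon. The eas transcript was the only one of the 15 most abundant no carbon genes called lower. The Woronin body gene hex-1 differed little, at 202071 on Avicel and 188563 without carbon.

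**Figure D2:**
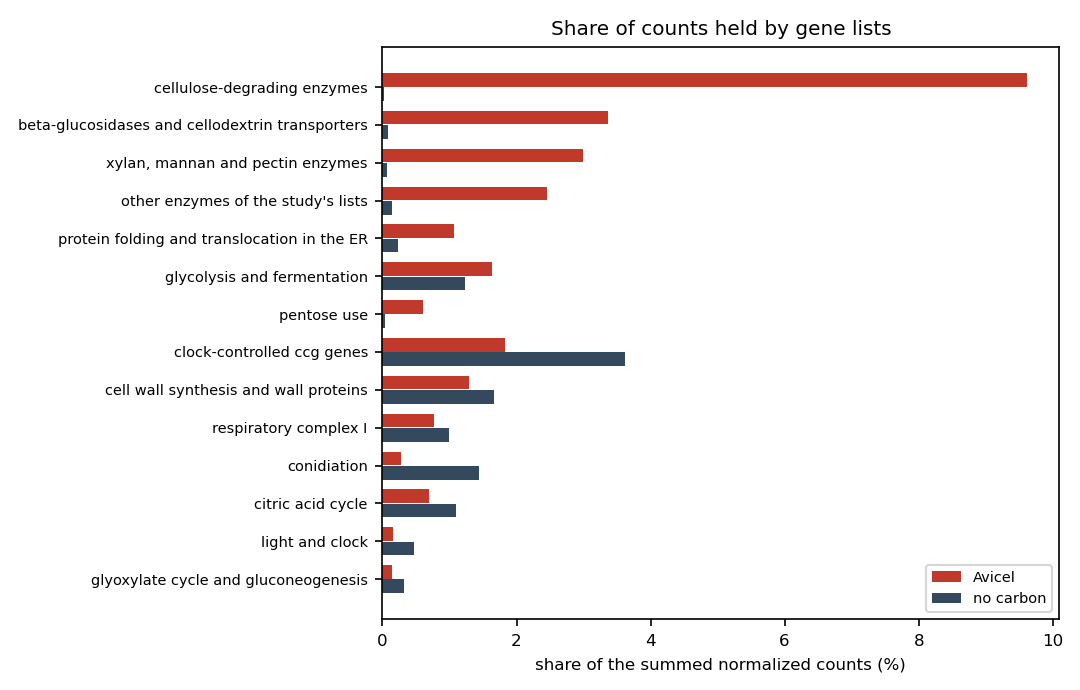
Share of all normalized counts (percent, horizontal axis) held by each of 14 gene lists on Avicel (upper bar) and without carbon (lower bar), from the authors' means. The cellulose-degrading enzymes hold 9.62% on Avicel against 0.0235% without carbon, and the conidiation genes hold 0.279% on Avicel against 1.44% without carbon.

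Enzymes that attack cellulose showed the greatest differences. Of 23 genes in the list, 19 passed the minimum. Of these, 15 were at least 4-fold higher on Avicel and 0 lower, with a median log2 fold change of 8.96, against 0.01 over all genes. The group held 9.62% of the counts on Avicel and 0.0235% without carbon. The greatest ratio of the whole table belonged to gh61-4, a lytic polysaccharide monooxygenase of family GH61, an enzyme class that cuts crystalline cellulose by oxidation. Its mean was 161773 on Avicel, against 15.6, 16.0 and 5.84 in the 3 no carbon libraries. All no carbon libraries were thus near the bottom of the scale, and the log2 ratio of the means was 13.66. The endoglucanase gene gh5-1 had 430994 on Avicel and 113 without carbon (log2 fold change 11.90).

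The cellobiohydrolases followed. Against cbh-1 at a log2 fold change of 10.24, gh6-2, which encodes cellobiohydrolase II, had 749126 on Avicel and 853 without carbon (9.78). The second abundant GH6 gene, gh6-3, had 533848 on Avicel and 924 without carbon (9.17). In family GH7, the endoglucanase gene gh7-1 had a log2 fold change of 8.96 and gh7-2 of 5.90. Cellobiose dehydrogenase, which passes electrons from cellobiose to the monooxygenases, is encoded by cdh-1, with 282315 on Avicel and 394 without carbon (9.48).

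Members of a family differed. Of 14 genes named gh61, 12 were compared and 10 of these were at least 4-fold higher. They include gh61-12, gh61-13 and gh61-14 (5.06, 8.92 and 8.54), which the study annotated and which are counted below with the enzymes of its lists. The paper places gh61-14 in family GH131, so this count by name is not a count of monooxygenases. The monooxygenase genes gh61-7, gh61-5, gh61-1 and gh61-3 had log2 fold changes of 10.27, 10.06, 9.06 and 8.70, while gh61-6 and gh61-2 had 5.65 and 3.97. The gh61-7 transcript had 108132 on Avicel, against 72.6, 112 and 78.8 in the no carbon libraries, which lay close together. For gh61-2 the Avicel mean was 1518, against 90.5, 103 and 96.3 in the no carbon libraries. By contrast gh61-9 was at 1.75, and gh61-10 was 64.8, 86.0 and 47.4 in the Avicel libraries against a no carbon mean of 142 (-1.11). The second cellobiose dehydrogenase gene, cdh-2, was near 0 (-0.28), with 339, 410 and 374 on Avicel against a mean of 453 without carbon. The GH6 gene gh6-1 had 134, 160 and 41.5 on Avicel against 139 without carbon, so that the Avicel libraries spanned the no carbon mean. The GH45 gene gh45-1 had 3563 on Avicel and 203 without carbon (4.14). The other genes of the list (gh7-3, gh7-4, gh61-8 and gh61-11) had means of at most 91 in either condition and were not compared.

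Genes that take up and cut cellodextrins came next. Of 9 beta-glucosidase and cellodextrin transporter genes, 6 were at least 4-fold higher on Avicel and 0 lower (median 4.54). The transporter gene cdt-2 had a mean of 760385 on Avicel and 6190 without carbon (6.94), and cdt-1 had 307888 on Avicel and 5345 without carbon (5.85). The intracellular beta-glucosidase gene gh1-1 had 610555 on Avicel and 2676 without carbon (7.83). Among GH3 genes, gh3-6 was at 7.33, gh3-3 at 4.54 and gh3-4 at 3.49, whereas gh3-5, gh3-1 and gh3-2 were at 0.89, -0.05 and -0.09. For gh3-1 the Avicel libraries held 276, 224 and 735, of which only library 3 exceeded the no carbon mean of 425.

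Hemicellulase genes were higher on Avicel, a cellulose preparation that, according to the paper, still holds a little hemicellulose. The paper attributes the induction of xylanase and xylose use genes to that remainder, which was not tested here. Of 12 xylan, mannan and pectin enzyme genes compared, 8 were at least 4-fold higher on Avicel and 0 lower (median 4.50). Together, the list held 2.99% of the counts on Avicel and 0.0667% without carbon. All 5 of the xylanase genes compared were called. The GH10 gene gh10-1 had 163224 on Avicel, against 51.4, 46.7 and 36.0 in the no carbon libraries (11.83). The GH11 gene gh11-1 had 32915 on Avicel, against 90.5, 254 and 60.3 without carbon (7.93), with library 2 the highest of the no carbon libraries. For gh10-3 the Avicel mean was 1422, against 32.8, 89.7 and 33.1 without carbon. The remaining xylanase genes gh10-2 and gh11-2 had log2 fold changes of 7.12 and 9.32. Among GH2 genes, gh2-1 was at 4.55, and gh2-2 and gh2-3 were at 1.31 and 1.08. The GH28 genes, a family that holds polygalacturonases of pectin breakdown, were near 0. In gh28-1 the libraries held 180, 162 and 225 on Avicel and 115, 150 and 159 without carbon. All 3 Avicel libraries thus lay above the no carbon ones, at a log2 fold change of 0.42. This was so in 46 of the 207 genes compared with reads recovered in both conditions. Other pectin enzyme genes are counted below with the study's own lists, which were chosen for their response. There the pectate lyase genes ply-2 and NCU06326 were at 6.54 and 2.74. NCU05965, which the paper counts among pectinases, was at 0.19.

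A further list of 38 enzyme genes came from the study's own lists of genes that responded to cellulose in these libraries, so its direction was fixed by that choice. Of 37 compared, 34 were at least 4-fold higher (31 with equal sums) and 0 lower (median 4.82). These included esterases that remove side groups from xylan. The carbohydrate esterase gene ce1-1 had 52289 on Avicel, against 59.2, 28.7 and 37.0 without carbon (10.29). NCU09416, annotated as a cellulose-binding GDSL lipase or acylhydrolase, had 16562 on Avicel, against 14.2, 19.5 and 6.81 without carbon (10.26). The esterase gene ce5-3 had 6078 on Avicel, against 12.7, 30.3 and 3.89 without carbon (8.60). In ce5-3 and NCU09416 the no carbon libraries were all below 31 normalized counts. At the other end of the list, gh94-1 was at 2.13, NCU02478 at 1.51, NCU04885 at 0.31 and NCU05965 at 0.19.

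Other glycoside hydrolase families act on chitin, starch and glycans of the cell's own proteins. RefSeq symbols named 79 glycoside hydrolase genes of the gh series, of which 70 were compared, 27 were at least 4-fold higher and 0 at least 4-fold lower. No gene of family GH18 (chitinases, 6 compared), GH13 (amylase family, 6) or GH76 (6) was called in either direction, with medians of -0.06, -0.15 and -0.03. Over all genes 2.76% were called higher and 0.483% lower, so 0 called among so few genes does not set a family apart. The same holds for the short lists below with 0 called. In GH47, which holds mannosidases that trim N-linked glycans, gh47-3 stood at 2.75 and gh47-5 at -1.95, with a family median of 0.07. The GH16 gene gh16-1 was at 2.51.

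Of the starch enzymes and invertase, 0 of 12 were called (median -0.15). Invertase (inv), which splits sucrose, had 38557 on Avicel and 12813 without carbon (1.59). The glucoamylase gene gla-1 was at -0.60 and gh31-1 at -1.93. For gh18-3 the Avicel libraries held 170, 145 and 1251 against a no carbon mean of 555, so that library 3 alone set the Avicel mean near the no carbon one.

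The study's annotation covered 182 of the 217 genes called higher, since it was given only for genes of its lists, and shares over other genes are not known. Of these 182, 63 carried a carbohydrate-active enzyme family, and these held 16.5% of the counts on Avicel against 0.189% without carbon. A predicted signal peptide was noted for 92 of the 182, and 39 of these 92 had no such family and held 2.24% on Avicel against 0.289% without carbon. In all, 66 of the 182 were listed as hypothetical proteins. The most abundant unnamed examples included NCU05864 (143126 on Avicel and 757 without carbon, log2 fold change 7.56) and NCU08398, annotated as an aldose 1-epimerase (65678 on Avicel and 777 without carbon, 6.40).

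Sugar transporters and pentose metabolism genes were higher as well. The 5 sugar transporters were taken from the study's lists, chosen on these samples, and all 5 were at least 4-fold higher (4 with equal sums, median 2.67). NCU06138 had 61389 on Avicel and 1869 without carbon (5.04), and NCU05853 had 259085 on Avicel and 16092 without carbon (4.01). NCU06384 was near the limit, with 805, 754 and 439 in the Avicel libraries against a mean of 163 without carbon (2.03). Leaving out Avicel library 1 or 2 moved it below 4-fold, to 1.87 and 1.93. The high-affinity glucose transporter gene hgt-1 had 71401 on Avicel and 32905 without carbon (1.12).

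Of 4 genes for pentose use, 3 were called higher (median 3.76). Xylose reductase (xr), the first enzyme of xylose catabolism, had 250932 on Avicel and 852 without carbon (8.20). NCU00891, annotated as a xylitol dehydrogenase, which acts next in the pathway, had 70077 on Avicel and 2870 without carbon (4.61). The xylulokinase gene xyk-1 had 21568 on Avicel and 2874 without carbon (2.91). The gene named xdh-1 did not follow, with 7565 on Avicel and 10344 without carbon (-0.45).

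Among 28 transcriptional regulators, 3 were at least 4-fold higher and 1 at least 4-fold lower. The median of the list was 0.11, and it became negative with equal sums. The regulator clr-2, which drives cellulase expression, had 34926 on Avicel and 295 without carbon (6.89). Its partner clr-1 was already expressed without carbon, with 24595 on Avicel and 5321 without carbon (2.21). The vib-1 gene, which encodes a p53-like transcription factor, had 30813 on Avicel and 5635 without carbon (2.45). With equal sums clr-2 alone was still called higher. The xylanase regulator xlr-1 stayed just under the limit, with 29799 on Avicel and 7845 without carbon (1.93).

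The carbon catabolite repressor gene cre-1 was at 0.56 and col-26 at 0.70. The amino acid and nitrogen regulators cpc-1 and nit-2 were at 0.22 and 0.13, within 2 typical standard errors (0.578) of 0. With equal sums nit-2 and cpc-1 would turn negative. The gene called lower was ada-6. Its Avicel libraries held 943, 783 and 237 against a no carbon mean of 3885 (-2.57), with library 3 lowest.

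The 6 genes for protein folding and translocation in the endoplasmic reticulum came from the study's lists and were chosen on these samples, so their direction was fixed by that choice. All 6 were at least 4-fold higher (median 2.36), and with equal sums 2 were, grp78 and NCU09223 (median 1.91). The 6 genes held 1.06% of the counts on Avicel and 0.236% without carbon. The chaperone gene grp78, the Neurospora BiP, had 274667 on Avicel and 34990 without carbon (2.97). The protein disulfide isomerase NCU09223 was at 2.48, the calreticulin NCU09265 at 2.41, the translocon gene sec61-1 at 2.31, the SEC62 homolog NCU06333 at 2.27 and the chaperone gene hsp70-6 at 2.06. These ratios were smaller than those of most secreted enzymes, and their no carbon means were already between 4535 and 34990.

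Glycan-trimming enzymes, which process sugars on secretory proteins, were listed by symbol and not chosen for their response. Of 16 compared, 1 was at least 4-fold higher and 0 at least 4-fold lower. The median was 0.09 and became negative with equal sums. Of 10 heat shock protein genes, 0 were called and 2 were at least 2-fold higher (0 with equal sums, median 0.54). Those 2 were hsp70-2 (12991 on Avicel and 5111 without carbon, 1.35) and hsp70-1 (1.30), whereas hsp98 and hsp90a were at 0.09 and -0.04.

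In central carbon metabolism, of 12 glycolysis and fermentation genes 1 was at least 4-fold higher, 5 at least 2-fold higher (2 with equal sums) and 0 lower, and 6 lay within 2 typical standard errors of 0. The median was 0.62, and 0.16 with equal sums. The called gene was cfp, which encodes an abundant pyruvate decarboxylase, with 98434 on Avicel and 11933 without carbon (3.04). Alcohol dehydrogenase (adh-1), which acts after it in fermentation, had 261333 on Avicel and 98924 without carbon (1.40). Glyceraldehyde-3-phosphate dehydrogenase (gpd-1) had 224584 on Avicel and 104596 without carbon (1.10). Other steps stayed near 0, including fructose-bisphosphate aldolase (fba, -0.27), phosphoglucose isomerase (gpi-1, -0.27) and phosphoglycerate kinase (pgk, 0.56).

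The glyoxylate cycle makes sugar precursors from acetate and fatty acids. Of 6 genes of the glyoxylate cycle and gluconeogenesis, 2 were at least 4-fold lower, 3 at least 2-fold lower and 0 higher (median -0.95). Isocitrate lyase (acu-3) had 3382 on Avicel and 16823 without carbon (-2.31), and malate synthase (acu-9) had 7081 on Avicel and 28551 without carbon (-2.01). These are the 2 enzymes particular to the cycle. Fructose-1,6-bisphosphatase (fbp-1) had 3344 on Avicel and 10405 without carbon (-1.64). Phosphoenolpyruvate carboxykinase (acu-6) was at -0.27, acetyl-CoA synthetase (acu-5) at 0.40 and acetyl-CoA hydrolase (acu-8) at 0.94.

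The citric acid cycle itself had 0 of 17 genes called and 1 at least 2-fold higher (0 with equal sums, median -0.07). That gene was citrate synthase (cit-1), with 23928 on Avicel and 10404 without carbon (1.20). The peroxins, which build the organelle that houses fatty acid breakdown, had 17 of 20 genes below 0 (median -0.34), against 3901 of all 7863 genes. Of the 20, 0 were at least 2-fold lower (6 with equal sums), and pex11 was lowest at -0.81.

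In the respiratory chain, of 29 complex I subunit genes 0 were called and all 29 lay within 2 typical standard errors of 0, between -0.28 and 0.46. The median was 0.06 and became negative with equal sums. Over all genes, 5949 of 7863 (75.7%) lay within that range. Of 4 genes for alternative enzymes, 2 were called, both just over the limit, and 0 were with equal sums (median 0.94, and 0.48 with equal sums). The alternative NADH dehydrogenase gene nde-2 had 3016 on Avicel and 731 without carbon (2.04), and the alternative oxidase gene aod-1 had 17357 on Avicel and 4251 without carbon (2.03). The other dehydrogenase genes nde-1 and nde-3 were at -0.76 and -0.16.

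Among 61 amino acid synthesis genes, 4 were at least 4-fold higher (2 with equal sums), 0 lower, and 39 lay within 2 typical standard errors of 0. The median was 0.16 and became negative with equal sums. The 4 were trp-3 (tryptophan synthase, 10601 on Avicel and 1861 without carbon, 2.51), aro-6 (the entry enzyme of aromatic synthesis, 2.47), cys-2 (2.12) and hom-1 (homoserine dehydrogenase, 2.12). At the low end stood cys-14, a sulfate permease, with 438, 410 and 700 in the Avicel libraries against a no carbon mean of 1385 (-1.43). The arginine pathway carrier arg-13 had 246, 325 and 314 against 661 without carbon (-1.16). In both genes all 3 Avicel libraries lay below the no carbon mean, as in 973 of all 2359 genes compared with recovered Avicel reads.

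Of 13 nitrogen use genes, 1 was at least 4-fold higher and 0 lower (median 0.13, which became negative with equal sums). This was nitrite reductase (nit-6), with 67444 on Avicel and 11473 without carbon (2.56). Nitrate reductase (nit-3), the enzyme before it, had 3157 on Avicel and 2132 without carbon (0.57). The glutamate dehydrogenases lay on opposite sides of 0. The NADP-dependent enzyme, which assimilates ammonium (am), was at 1.21, and the NAD-dependent one, which releases it (gdh-1), was at -0.98.

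Housekeeping machinery lay near 0. All 21 mitochondrial import genes, all 14 vacuolar ATPase genes and all 9 histone genes lay within 2 typical standard errors of 0, as did 29 of 30 proteasome genes, 43 of 46 stk kinase genes and 29 of 31 DNA repair genes. Their medians were -0.04, -0.03, 0.31, -0.08, 0.10 and 0.00 in that order. The medians of histones and stk kinases became negative with equal sums. The cytosolic ribosomal protein genes all lay above 0 (9 of 9, median 0.49), and the median was 0.03 with equal sums. The exceptions in DNA repair were msh3 and msh4. The msh3 gene, named for a mismatch repair protein, had 11058 on Avicel and 1049 without carbon (3.40). It lies beside cdt-2 in the gene order. For msh4 the libraries held 96.2, 82.6 and 486 on Avicel and 62.2, 226 and 57.4 without carbon. The groups overlapped, and its log2 fold change of 0.94 became -0.37 without Avicel library 3.

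**Figure D3:**
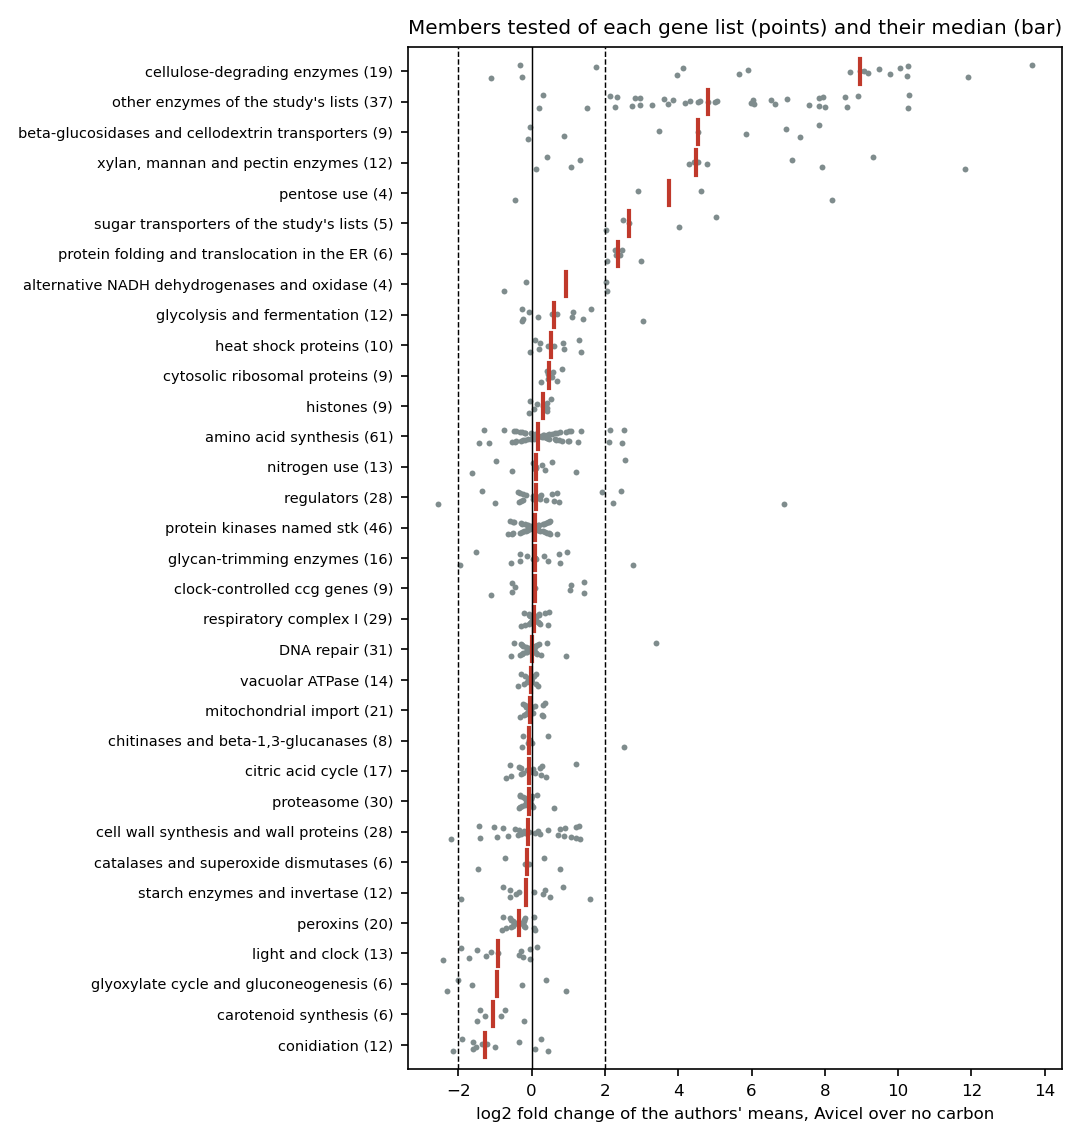
Log2 fold change (Avicel over no carbon, horizontal axis) of every gene compared in each of 33 gene lists, each point 1 gene and each bar the list's median, with the lists ordered by median and dashed lines at the 4-fold limits. Cellulose-degrading enzymes lie at the high end with a median of 8.96, complex I and other housekeeping lists lie near 0, and conidiation lies at the low end with a median of -1.28.

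The lists at the low end concerned conidia, light and pigment. Conidiation genes mark another cell type, the asexual spore, that a starved colony can form. Of 12 such genes, 1 was at least 4-fold lower, 8 at least 2-fold lower and 0 at least 2-fold higher (median -1.28). They held 0.279% of the counts on Avicel and 1.44% without carbon, most of it in eas (-2.15). None of the 12 was at 0 in either condition. The conidiation-specific genes con-10, con-6 and con-8 were at -1.90, -1.61 and -1.22, with con-10 at 2492 on Avicel and 9292 without carbon. For con-13 the Avicel libraries held 70.0, 71.3 and 65.2 against a no carbon mean of 207 (-1.59). For acon-3 they held 773, 759 and 385 against 1821 (-1.51). The Avicel libraries of con-13 lay close together, and library 3 was lowest in acon-3.

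The regulators of conidiation were less uniform. The fluffy gene (fl), the main activator of conidial development, had 1750 on Avicel and 3508 without carbon, and csp-1 was at -1.34. In contrast, csp-2 was at 0.26, rca-1 at 0.10 and acon-2 at 0.45. The Avicel libraries of acon-2 held 767, 600 and 718 against a no carbon mean of 508, all of them above it. The part of conidial cells in the differences between the groups was not tested.

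Light-regulated genes were lower in parallel, although all cultures were kept in constant light. Of 13 light and clock genes, 1 was at least 4-fold lower, 6 at least 2-fold lower and 0 at least 2-fold higher (median -0.91). Cryptochrome (cry) had 3492 on Avicel and 18557 without carbon (-2.41), and photolyase (phr), which repairs ultraviolet damage, had 1020 on Avicel and 3865 without carbon (-1.92). The blue light photoreceptor gene vvd had 26425 on Avicel and 63216 without carbon (-1.26). The blue light-induced genes bli-4 and bli-3 were at -1.72 and -1.50, with 824, 887 and 747 in the Avicel libraries of bli-4 against a no carbon mean of 2692. The opsin gene nop-1 was at -1.11. The photoreceptor complex upstream of these genes differed less, with wc-1 at -0.34 and wc-2 at -0.23. The clock gene frq was at -0.91 and its partner frh at -0.04.

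The carotenoid pathway, which makes the orange pigment of conidia, had 3 of 6 genes at least 2-fold lower and 0 called (median -1.04). These were the early enzymes al-2 (phytoene synthase, 12557 on Avicel and 35220 without carbon, -1.49), al-1 (phytoene desaturase, -1.42) and al-3 (geranylgeranyl diphosphate synthase, -1.26). The late enzyme ylo-1 was at -0.22. Of 6 catalase and superoxide dismutase genes, 0 were called and 1 was at least 2-fold lower (median -0.13). That gene was cat-1, a catalase abundant in conidia, with 10568 on Avicel and 29106 without carbon (-1.46), while cat-2, sod-1, cat-3, sod-2 and cat-4 ran from -0.73 to 0.77.

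Clock-controlled genes with a ccg symbol split in both directions. Of these 9, 4 were at least 2-fold higher (0 with equal sums), 1 at least 2-fold lower and 0 at least 4-fold different. The median was 0.09 and became negative with equal sums. The higher ones were ccg-8, ccg-9, ccg-4 and ccg-6 (1.42, 1.42, 1.08 and 1.05), and the lower one was ccg-1 (-1.10). The eas gene, also known as ccg-2, carries another symbol. It was counted with conidiation instead and was called lower (-2.15).

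Cell wall genes split likewise. Of 28, 5 were at least 2-fold higher (0 with equal sums) and 4 at least 2-fold lower, with 1 at least 4-fold lower (median -0.10). The higher ones were the wall protein genes acw-10, acw-8, ncw-2, acw-7 and acw-9, between 1.07 and 1.33, led by acw-10 with 35566 on Avicel and 14139 without carbon. The called gene was ncw-6, with 1276 on Avicel and 5864 without carbon (-2.20). For ncw-5 the Avicel libraries held 191, 23.8 and 789 against a no carbon mean of 892 (-1.41), so the 3 libraries of the group were far apart.

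Of the 38 lower genes, 7 had a RefSeq symbol (18.4%), against 13.7% of all genes compared. The lowest was NCU03011, with 61.7, 43.0 and 65.2 in the Avicel libraries against a no carbon mean of 632 (-3.48). NCU07718 had 1504 on Avicel and 12419 without carbon (-3.05), and these were the only 2 genes at least 8-fold lower. The gene app had 1738 on Avicel and 13611 without carbon (-2.97). NCU00848 had 77.3, 99.6 and 148 in the Avicel libraries against 841 without carbon (-2.96). NCU05767 had 277, 275 and 320 against 2188 (-2.91), and NCU09049 had 146, 151 and 154 against 1027 (-2.77). The Avicel libraries of these last genes lay close together.

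For others the libraries disagreed. NCU05188 and NCU05189, with neighbouring locus numbers, had 459, 285 and 1168 and 83.6, 58.9 and 273 on Avicel against 3852 and 933 without carbon, and library 3 was the highest in both. NCU03761 had 536, 336 and 1364 on Avicel against 3653 (-2.29).

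Of the 38 lower genes, 23 had recovered Avicel reads. In 13 of these even the highest Avicel library was at least 4-fold below the no carbon mean. The 23 had been picked by the ratio of the same means. Leaving out Avicel libraries 1, 2 and 3 in turn left 22, 19 and 21 of the 23 at least 4-fold lower. Without library 3, other genes passed the limit as well, giving 39 lower genes in all. No carbon reads could be recovered for 0 of the 38, because their no carbon means were mostly above the limit of 400, so the spread of the no carbon side is unknown for these genes.

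**Figure D4:**
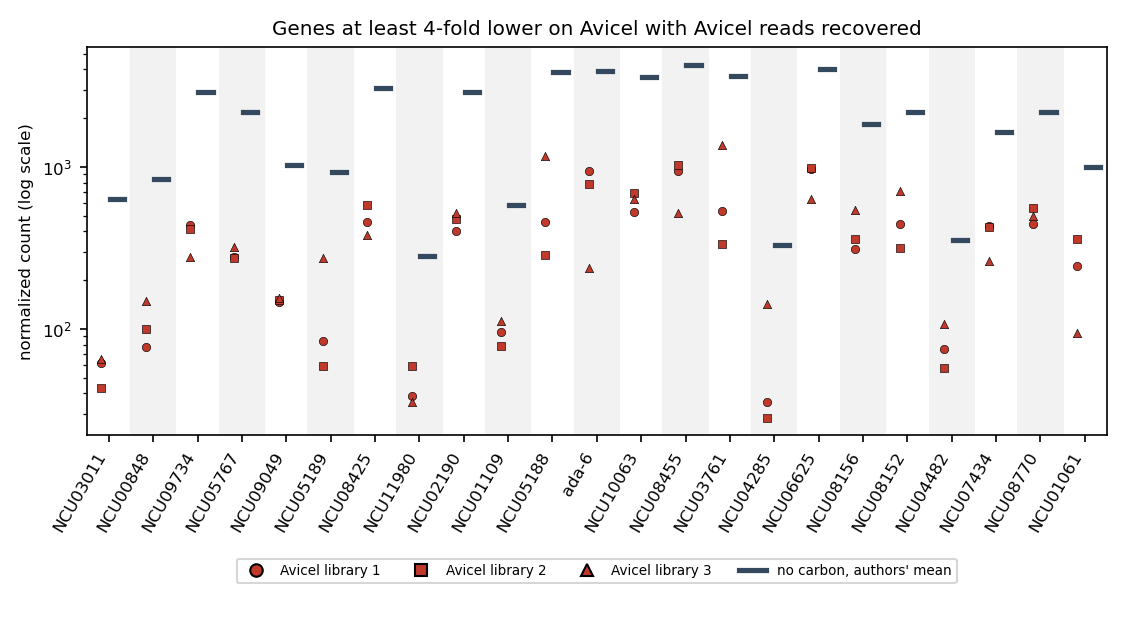
Normalized counts (vertical axis, log scale) in the 3 Avicel libraries (points) of the genes at least 4-fold lower whose Avicel reads were recovered, with the authors' no carbon mean of each gene as a bar to their right. In 13 of the 23 genes all 3 Avicel points lie at least 4-fold below the bar. Library 3 (triangles) is the highest Avicel library in 13 genes, against 943 of all 2359 genes compared with recovered Avicel reads.

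The higher genes could be checked in the same way mainly on the no carbon side. Reads of the no carbon libraries were recovered for 47 of the 217. In 43 of these the Avicel mean was at least 4 times as high as the highest no carbon library. The 47 had been picked by the ratio of the same means. Leaving out no carbon library 1, 2 or 3 left 46, 47 and 45 of the 47 called. The Avicel reads were recovered for 26 of the 217, all of which had Avicel means under 1000, so the abundant enzymes are not among them.

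Library 3 was the highest Avicel library in 20 of these 26 and the lowest in 5. Over all 2359 genes compared with recovered Avicel reads, it was the highest in 943 and the lowest in 1226. Without library 3, 16 of the 26 remained at least 4-fold higher, against 24 and 23 without library 1 or 2. In NCU07350 the Avicel libraries held 24.0, 3.40 and 824 and the no carbon libraries 3.72, 150 and 0.97, so the groups overlapped and the difference rested on library 3. Its log2 fold change was 2.46 with all libraries and -1.91 without library 3. In NCU05842 the Avicel libraries held 61.7, 45.3 and 1548 and the no carbon libraries 30.9, 71.4 and 31.1, and the log2 fold change of 3.63 became 0.27 without library 3. In NCU05557 and NCU05126 it also changed sign, to -0.33 and -0.21. The depth of library 3 was the lowest of the 6, and its part in these values beyond leaving it out was not tested.

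The groups were well apart in other genes, with varying spread within them. NCU05056 had 411, 543 and 510 in the Avicel libraries and 3.72, 5.58 and 5.84 in the no carbon libraries. The gene cea-4 had 233, 352 and 421 on Avicel and 41.0, 52.2 and 41.8 without carbon. The cytochrome P450 gene cyp450-11 had 164, 213 and 552 on Avicel and 7.45, 3.99 and 5.84 without carbon. In these 3 genes each Avicel library exceeded each no carbon library. They lie beside more abundant genes called higher, NCU05056 beside gh7-1, cea-4 beside gh5-1 and cyp450-11 beside NCU05846, and the part of a neighbour's reads in these counts was not tested. NCU07510 differed in having library 3 lowest, with 803, 996 and 178 on Avicel and 10.8, 8.77 and 3.89 without carbon, and it lies beside gh10-2.

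**Figure D5:**
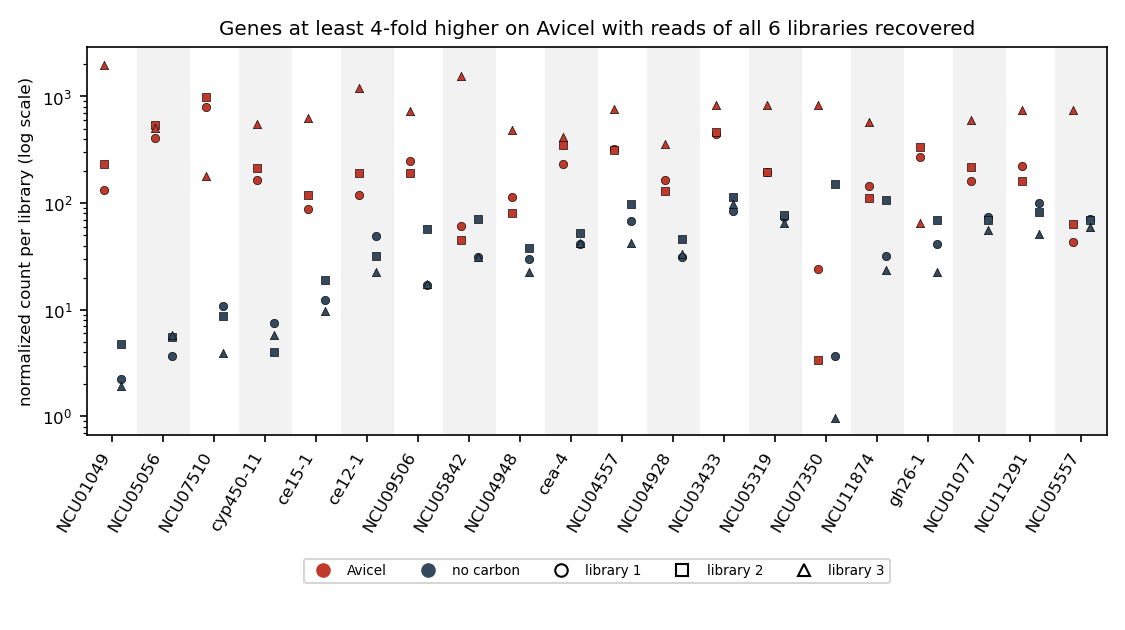
Normalized counts (vertical axis, log scale) in each Avicel library (left points of a gene) and each no carbon library (right points) for the genes at least 4-fold higher whose reads were recovered in both conditions. Of these 20 genes, picked by the ratio of the same means, 16 have all 3 Avicel libraries above all 3 no carbon libraries.

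Of the 20 higher genes with reads in both conditions, 16 did not overlap between the groups. The 20 were picked by the ratio of these same means, and all had no carbon means below 100. They thus passed the minimum only through their Avicel means, so groups with little overlap were favoured by the choice. Over all 207 genes of the comparison with reads in both, all 3 Avicel libraries lay above all 3 no carbon libraries in 46 (22.2%) and below them in 7 (3.38%). The 46 include the 16. The recovery limits were a mean of 1000 on Avicel and 400 without carbon, which admits more genes that are higher on Avicel, so these shares describe the recovered genes only.

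A test with replicates was possible for 1103 genes with recovered reads in all 6 libraries and a mean of at least 10, which included genes below the minimum of 100. With limma's moderated test on voom-weighted log2 counts and Benjamini-Hochberg adjustment over the 1103 genes, 34 were higher on Avicel at an adjusted p below 0.05 (3.08%) and 1 was lower (0.0907%). At an unadjusted p below 0.05 there were 104 higher and 74 lower. The count of higher genes changed when a single library was left out, which also leaves fewer samples in the fit. It was 15 without Avicel library 1, 21 without Avicel library 2 and 42 without Avicel library 3. Without no carbon library 1 or 3 it was 15. The count of lower genes was 6 without no carbon library 2 and 0 without any other library. The smallest adjusted p belonged to NCU05056, with a log2 difference of 6.61 (95% interval 5.78 to 7.44, adjusted p = 8e-05 by limma, n = 3 each) and all 3 Avicel libraries higher. For NCU07510 the difference was 6.09 (adjusted p = 0.0049 by limma), for cyp450-11 it was 5.41 (adjusted p = 0.0032 by limma), and for cea-4 it was 2.81 (adjusted p = 0.0032 by limma).

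The glucuronoyl esterase family gene ce15-1 had 87.8, 120 and 623 on Avicel and 12.3, 19.1 and 9.73 without carbon, with a difference of 3.51 (adjusted p = 0.035 by limma). NCU01049 had 133, 232 and 1987 on Avicel and 2.23, 4.78 and 1.95 without carbon. Its groups did not overlap, but with the spread of its Avicel libraries it missed the threshold (log2 difference 6.65, 95% interval 3.16 to 10.14, adjusted p = 0.06 by limma). The gene that was lower was NCU01111, with 24.0, 15.8 and 17.8 on Avicel and 68.9, 59.4 and 79.8 without carbon, and a log2 difference of -1.76 (adjusted p = 0.032 by limma). Of the 217 and 38 genes called by fold, 20 were among those tested, and 9 of these 20 passed.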

How the data were processed

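Messenger RNA of N. crassa wild type was read 4 h after transfer to Avicel or to medium without carbon, in 3 libraries per condition. Per the study's methods and labels, the authors mapped Illumina reads (CASAVA 1.8.0) with TopHat 2.0.4 to predicted OR74A transcripts and counted unique exon reads with HTSeq, whose version, like the genome build and the strand setting, is not given in the sources used here. The values analysed are a signal: the authors' DESeq mean of size-factor-normalized counts for each condition in the deposited table. The table's 4 columns of the authors' own comparison (fold change, its log2, p and adjusted p) were not used, and no column of another sample was read. The Cufflinks 2.0.2 values named in the labels were not used here.

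Samples were grouped by their labels. Genes with a baseMean (mean of both conditions) of at least 100 were compared by the ratio of the means, and calls at 4-fold have no test. The planned fit over libraries was not possible on group means. As an addition made after seeing the data, the whole reads of each library were recovered for genes with means up to 1000 (Avicel) or 400 (no carbon): a mean averages 3 whole numbers, each divided by its size factor, and only genes with 1 solution were kept. On simulated tables, 4102 of 4102 Avicel and 2289 of 2289 no carbon solutions were right. Recovered reads of 1103 genes (baseMean of at least 10) were tested with limma 3.58.1 (voom, two-sided, Benjamini-Hochberg, with the recovered size factors) in R 4.3.3. On simulated reads of these 1103 genes it found 98% of genes changed by log2 of 2, 100% of those changed by log2 of 3, and called 7 unchanged genes. The simulation gave every gene and library the same spread, whereas Avicel library 3 stood apart in the data. These shares therefore cannot be carried over to the recovered reads. Other steps used Python 3.11.15, numpy 2.4.6, pandas 2.3.3 and matplotlib 3.10.9.

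Members and lists were chosen with earlier results of these data known. Product names were not at hand, so gene lists were built from RefSeq symbol families after the files were seen. RefSeq (NC12) matched 9078 of 9582 locus numbers, 1113 of them with a symbol, and served only for names and gene order. The genes named were the 15 greatest and 15 smallest fold changes, the 15 highest means per condition, the most abundant and most extreme members of each list, all members of short lists and genes the study names, of which the text gives the ones that carry each comparison; others, among them the genes picked to show agreement or disagreement of libraries, were chosen after their values were seen. The alternatives were other pseudocounts, minimum values, fold limits and scalings and, where reads were recovered, leaving out each library. Precision is limited by 3 libraries per condition and by the shallowest of them.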

Additional observations from a re-analysis of the deposited data

How the results depend on the processing

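On all genes, 217 higher and 38 lower genes at 4-fold stayed within 1.5 times of these counts under both pseudocounts (1 and 10), minimum baseMeans of 50 and 500 and recentring on the median. The exceptions were 101 lower genes with no minimum, 87 lower genes with group means rescaled to equal sums (163 higher), and other fold limits, with 596 higher and 311 lower at 2-fold and 122 higher and 2 lower at 8-fold. Both together, an alternative chosen after seeing the data, gave 343 higher and 914 lower at 2-fold. The rescaling moved the median log2 fold change of all genes to -0.449, and 11 instead of 19 of the 33 list medians were above 0. The share of Avicel counts in the higher genes was 25.1%, and 21.8% without cbh-1, 33.7% at 2-fold and 22.1% at 8-fold.

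Among genes with recovered reads, leaving out 1 library gave 18 to 31 higher genes (26 with all) and 20 to 39 lower genes (23 with all, and 39 without Avicel library 3) on the Avicel side, and 47 to 55 higher genes on the no carbon side (47 with all). The limma count of 34 higher and 1 lower ranged from 15 to 42 higher and 0 to 6 lower. It was 15 higher without Avicel library 1, 21 without Avicel library 2, and 15 each without no carbon library 1 or 3, while 6 were lower without no carbon library 2. With a baseMean of at least 100, limma called 21 higher and 0 lower. The causes were not tested, except that fewer genes and samples enter these fits.

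No paired analysis was possible because the table holds means per condition and the recovered libraries carry no replicate number. For the same reason leaving out each replicate and the replicate block were not run on all genes. The abundant cellulase genes therefore have a spread on the no carbon side at most. Reads of genes with means above the recovery limits, and the depth of each library beyond its size factor, are not known.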

Other observations

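Some of the higher genes lie outside the lists above. NCU07143, annotated as a secreted aldonolactonase, had 137586 on Avicel and 1287 without carbon (log2 fold change 6.74), and an annotated lactonohydrolase, NCU01866, had 2713 on Avicel and 583 without carbon (2.22). Aldonolactones are the products that cellobiose dehydrogenase releases from cellobiose. The annotated lipase NCU04475 had 50161 on Avicel and 1883 without carbon (4.74), and NCU09705, annotated as GAL10, had 46176 on Avicel and 2616 without carbon (4.14). The glutathione S-transferase genes gst-3 and gst-4 were at 3.06 and 2.90, and the sterol synthesis gene erg-10 was at 2.81, with 22775 on Avicel and 3249 without carbon.

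Higher genes were often neighbours in the RefSeq gene order, in which genes that were not compared were skipped here. Of 212 higher genes with a place in that order, 70 (33.0%) lay beside another one. Among 7346 other genes, 337 (4.59%) lay beside a higher gene. Of 37 lower genes, 4 (10.8%) lay beside another lower gene, against 69 of 7521 others (0.917%). The higher genes formed 29 runs of at least 2 genes, 7 of them of at least 3, and the longest held 5. One such run was NCU04400, NCU04401, NCU10106, NCU10107 and NCU10110, with log2 fold changes of 4.37, 5.71, 2.46, 4.06 and 4.13. In another, cea-4 (2.90), gh5-1 (11.90) and NCU00763 (8.02) were next to each other, although their Avicel means were 335, 430994 and 4988. These are counts without a test.

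Low genes that passed limma's test were also often next to a strongly higher gene. For this count all genes of the deposited table with a RefSeq place were kept in the order. Of the 34 genes higher by limma, 17 (50%) lay directly beside a gene at least 4-fold higher, against 44 of the 1069 other genes tested (4.12%). Among the 17 with a baseMean below 100, this held for 11. NCU08043 lay beside clr-2, NCU08383 beside xr, NCU07226 beside gh11-2 and NCU08116 beside msh3. In NCU07226 the Avicel libraries held 76.3, 86.0 and 119, while gh11-2 had a mean of 1042360. The sources used here do not state whether counting used strand, and whether reads of the abundant neighbour were counted in the low gene was not tested.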
